A study of Mus musculus with 12 samples.

Results

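The spiral ligament forms the outer part of the cochlear lateral wall, and its fibrocytes are represented here by 7 genes, Otos, Coch, Pou3f4, Tbx18, Emilin2, Gm2a and Slc4a11, among 19938 genes that the array values give with their own symbol. The genes were chosen by name, with earlier results of these data known, and each was found with 1 array entry of its own. All 7 passed the filter that left 16306 genes for testing, with at least 1 group mean over 6 on the log2 scale. The values are log2 signals of 12 Affymetrix GeneChips, 2 for each of 6 groups, namely 3 regions of the cochlea (base, middle and apex) of C57BL/6 mice, at P0 and again at P8. All mice were wild type and untreated, and each array carried RNA of tissue pooled from many animals, namely lateral wall, spiral limbus and organ of Corti without the otic capsule. Each group held 1 array from a first and 1 from a second dissection set, told apart by the year in the sample titles. Per the methods, tissue was cut into 3 regions, and the dissection was repeated for the second set. From this, the 3 regions of an age and year were taken to be cut from the same cochleae.

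Fibrocytes of the spiral ligament anchor the basilar membrane to the bony wall and take up potassium that has passed through the hair cells. Gap junctions carry the potassium on to the stria vascularis, which secretes it into the endolymph and maintains the endocochlear potential needed for hearing. The fibrocytes arise from the mesenchyme around the otic epithelium and mature after birth. Of the genes described here, Pou3f4 and Tbx18 encode transcription factors of that mesenchyme, Coch, Otos and Emilin2 encode secreted proteins, Gm2a encodes a lysosomal cofactor and Slc4a11 encodes a membrane transporter. None of them is known to be confined to the ligament, and Emilin2 is also known from the basilar membrane. Because the arrays were hybridized with RNA of mixed tissue, more cells of a type and more RNA per cell cannot be told apart.

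Hair cell markers were checked first, since the tissue should hold the organ of Corti. Of 10 such markers, 9 were above a log2 signal of 6 on all 12 arrays. This level is low, since 16306 of 19938 genes had at least 1 group mean above it. The share of all genes above it on every array was not counted, so the markers do not show that hair cells were present. One array stood apart in its other tissues. In the P0 apex of the first set, the mean log2 signal of 7 skeletal muscle genes was 8.02, against 6.70 to 7.17 on the other 11 arrays, and that of 7 cartilage genes was 9.80, against 8.69 to 9.45. The median of all tested genes was between 8.02 and 8.19 on every array.

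Both genes that passed the test between P0 and P8, Emilin2 and Otos, encode secreted proteins, while Coch, which also encodes a secreted protein, did not pass. Emilin2 stood 9.11-fold higher at P8 and Otos 6.17-fold higher, as means over the 3 regions, and each passed the test in every region. In this test a gene had to differ by at least 2-fold between the ages with a Benjamini-Hochberg adjusted p under 0.05 in limma, adjusted over all 16306 genes. The 3 regions of an age and dissection set were taken to come from the same pool of cochleae, so that each age had 2 pools. SEs and p-values over all regions count these regions as separate samples, here and with the dissection set as a block. They may therefore understate the spread between pools. Of the 7 genes, 2 passed, while 3.20% of all tested genes passed in either direction and 2.06% were higher at P8. By the adjusted p alone, with no fold required, 5 of the 7 passed, against 18.7% of all genes. The median log2 difference of the 7 genes was 0.56, and that of all tested genes was -0.001. Because the 7 genes were chosen with earlier results of these data known, these figures describe them and do not test them as a set.

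**Figure D1:**
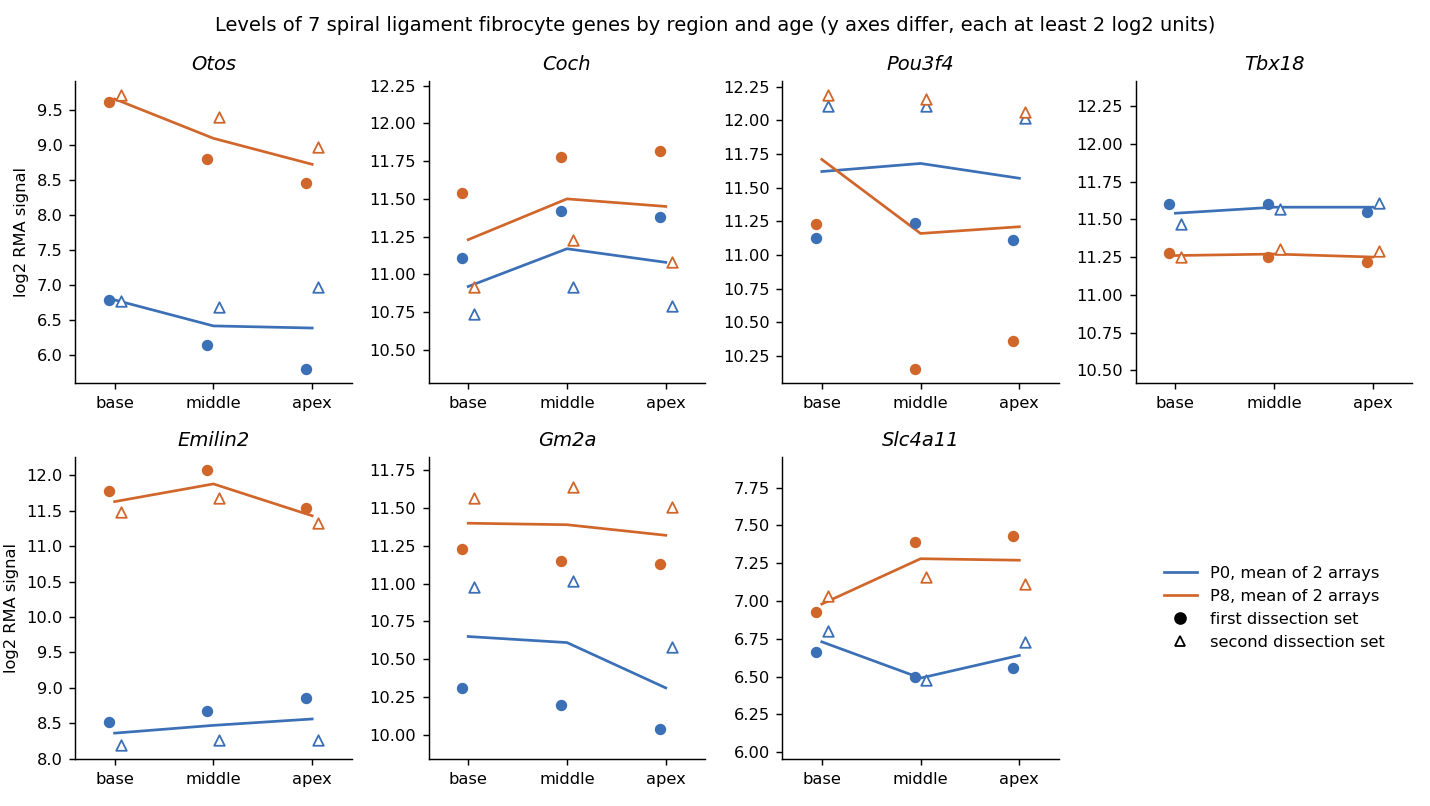
Log2 RMA signal of each gene by region at P0 (blue) and P8 (orange). Filled circles are the first and open triangles the second dissection set, and lines join the means of the 2 arrays. The y axes differ between panels. The orange points of Otos and Emilin2 lie far above the blue ones, while those of Pou3f4 separate by dissection set.

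Emilin2 encodes an elastin microfibril interfacer, a glycoprotein of the extracellular matrix. At P0 its log2 signal in the first and second sets was 8.52 and 8.19 in the base, 8.67 and 8.27 in the middle and 8.86 and 8.26 in the apex. At P8 it was 11.78 and 11.49 in the base, 12.07 and 11.68 in the middle and 11.54 and 11.33 in the apex. Every P8 array was thus above every P0 array, with the lowest P8 value at 11.33 and the highest P0 value at 8.86. The difference over all regions was 3.19 ± 0.15 (SE) on the log2 scale (adjusted p = 6.46e-06), and it ranked 10 of 16306 genes, counted from the highest. The 2 dissection sets gave 3.11 and 3.26, so that the sets differed little in the size of the increase. By region, Emilin2 rose 9.70-fold in the base (adjusted p = 5.54e-04), 10.6-fold in the middle (adjusted p = 4.27e-04) and 7.33-fold in the apex (adjusted p = 8.71e-04). Its mean signal at P8 was highest in the middle at 11.88 ± 0.27 (SD, n = 2), followed by the base at 11.63 ± 0.20 and the apex at 11.43 ± 0.15. Each of these steps was at or just beyond the spread, which is the root mean square of the SDs of the groups on either side, while the P0 regions, at 8.36 ± 0.24 to 8.56 ± 0.42, did not differ beyond it.

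Otos encodes otospiralin, a small secreted protein of fibrocytes in the ligament and the limbus that is needed for hearing in mice. At P0 the first and second sets gave 6.79 and 6.78 in the base, 6.15 and 6.69 in the middle and 5.80 and 6.98 in the apex. At P8 the values were 9.60 and 9.71 in the base, 8.79 and 9.40 in the middle and 8.46 and 8.97 in the apex. All P8 arrays lay above all P0 arrays, with 8.46 as the lowest P8 and 6.98 as the highest P0 signal. Over all regions the difference was 2.63 ± 0.22 (SE) on the log2 scale (adjusted p = 9.18e-05), rank 20 of 16306 from the highest, with 2.70 and 2.55 in the respective sets. The P0 signal was close to the filter level of 6 and under it on 1 array, the P0 apex of the first set, which is the array with the high muscle and cartilage signal. Whether that tissue had a part in the low value was not tested.

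Within regions, Otos rose 7.30-fold in the base (adjusted p = 0.00514), 6.40-fold in the middle (adjusted p = 0.00611) and 5.03-fold in the apex (adjusted p = 0.0107). In the fit without a block, these regional results depended on single arrays. Without the first-set P0 array of a region, the adjusted p for the base was 0.0501, for the middle 0.0644 and for the apex 0.0547, where the log2 difference fell to 1.74 from 2.33. Without the second-set P8 array of the apex, the adjusted p was 0.0726. With the dissection set as a block, Otos passed in each region whichever of the 12 arrays was left out, and the highest adjusted p for the base was 9.09e-04, for the middle 6.47e-04 and for the apex 5.95e-04. The result over all regions passed whichever array was left out, with log2 differences of 2.43 to 2.82. In these regional comparisons 2 of the 7 genes passed each time, Otos and Emilin2, against 2.19% (base), 2.35% (middle) and 2.64% (apex) of all genes.

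**Figure D2:**
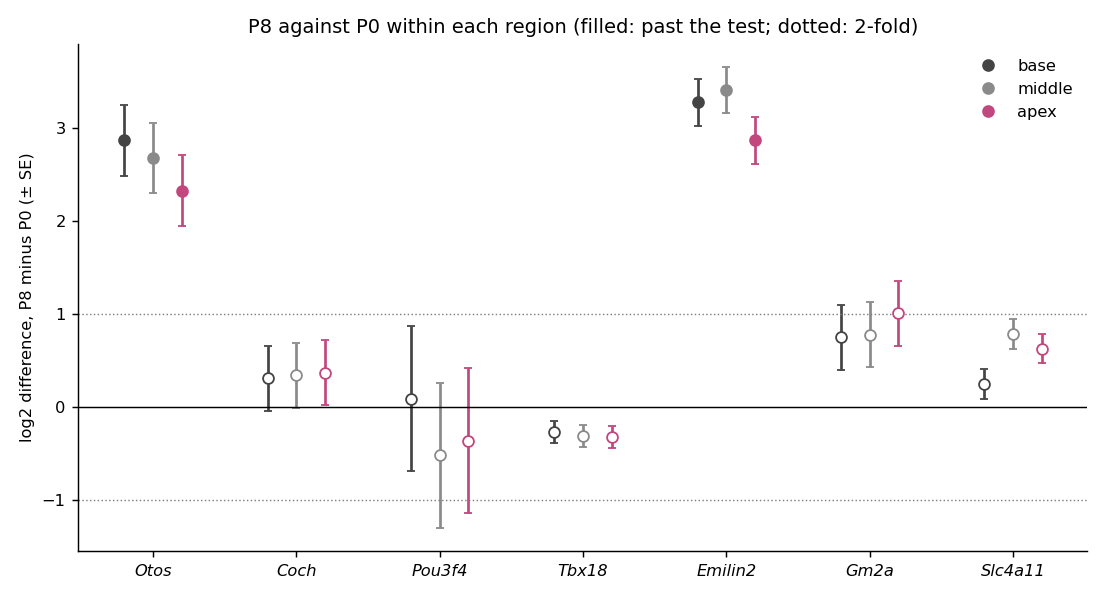
Log2 difference between P8 and P0 (± SE, limma, 2 arrays against 2) for each gene in the base, middle and apex. Filled points passed the test, and dotted lines mark a 2-fold difference. Otos and Emilin2 are filled in all 3 regions, and the apex of Gm2a lies just past the 2-fold line but is open.

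Promoter sequence is shown for Otos and Emilin2, because these were the 2 genes that passed the test of age. Each window runs from 250 bases before to 50 bases after a transcript start in RefSeq (mouse build GRCm38.p6), and Emilin2 has 2 listed starts. The Otos window is chr1:92648792-92649091 on the minus strand. The Emilin2 windows are chr17:71311507-71311806 for start 1 and chr17:71310962-71311261 for start 2, also on the minus strand. Capitals mark the motifs searched on both strands, which were the POU octamer ATGCAAAT, the T-box element AGGTGTGA with its inner part GGTGTG, the TATA box TATAAA, the CCAAT box CCAAT and the GC box GGGCGG.
Otos: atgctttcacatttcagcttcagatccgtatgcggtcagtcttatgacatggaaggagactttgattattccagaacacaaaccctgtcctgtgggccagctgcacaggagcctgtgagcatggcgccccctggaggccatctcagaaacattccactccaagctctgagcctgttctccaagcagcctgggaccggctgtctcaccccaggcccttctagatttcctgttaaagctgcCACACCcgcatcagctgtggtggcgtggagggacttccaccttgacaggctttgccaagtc
Emilin2, start 1: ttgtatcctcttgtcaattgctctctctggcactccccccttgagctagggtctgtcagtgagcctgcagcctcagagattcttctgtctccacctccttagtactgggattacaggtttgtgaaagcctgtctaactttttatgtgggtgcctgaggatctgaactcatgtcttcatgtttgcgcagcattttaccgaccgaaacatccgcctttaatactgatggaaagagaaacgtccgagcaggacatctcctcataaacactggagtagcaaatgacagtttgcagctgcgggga
Emilin2, start 2: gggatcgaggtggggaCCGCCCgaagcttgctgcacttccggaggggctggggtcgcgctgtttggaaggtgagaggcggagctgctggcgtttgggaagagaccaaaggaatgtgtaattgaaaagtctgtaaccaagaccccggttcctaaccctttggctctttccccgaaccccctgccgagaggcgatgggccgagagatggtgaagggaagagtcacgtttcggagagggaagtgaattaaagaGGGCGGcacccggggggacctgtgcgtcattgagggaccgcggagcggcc

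The Otos window held 1 match, to GGTGTG on the reverse strand, beginning 11 bases before the start. The same letters occurred in 19.0% of all 32851 RefSeq windows. Start 1 of Emilin2 held no match, and start 2 held the GC box letters on each strand, as did 35.7% of all windows. The full POU octamer and the full T-box element, found in 1.74% and 1.28% of windows, were in none of the 7 windows of the 6 genes listed there, Slc4a11 having no entry. GGTGTG was also in the Coch window. That window held TATAAA too, on the reverse strand and beginning 3 bases after the start, and these letters occurred in 13.6% of windows. The windows of Pou3f4 and Tbx18 held the CCAAT letters, as did 37.4% of windows, and those of Coch and Gm2a the GC box letters. The GC content of the 7 windows ranged from 48.3% for start 1 of Emilin2 to 73.7% for Coch, against a median of 52.7% over all windows.

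Coch encodes cochlin, an abundant secreted protein of the ligament and limbus, and mutations in the human gene cause a dominant form of hearing loss. At P0 its log2 signal was 11.11 and 10.74 in the base, 11.42 and 10.92 in the middle and 11.38 and 10.79 in the apex, for the first and second sets. At P8 it was 11.54 and 10.92, 11.78 and 11.23, and 11.82 and 11.08 in the same regions. The ages overlapped. The log2 difference over all regions was 0.34 ± 0.20 (SE), with 0.41 and 0.26 in the respective sets, and it did not pass (adjusted p = 0.305). With the dissection set as a block the adjusted p was 0.00245, while the 1.26-fold difference stayed short of 2-fold. In the order of the 6 group means, from the P8 middle at 11.50 down to the P0 base at 10.92, no neighbouring groups differed beyond their spread.

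Among the transcription factors, Tbx18 had the least variable and Pou3f4 the most variable signal of the 7 genes between the arrays of a group. Tbx18 is required for the otic mesenchyme to form the fibrocytes of the ligament. Its P0 values were 11.60 and 11.47 in the base, 11.60 and 11.57 in the middle and 11.55 and 11.61 in the apex. At P8 they were 11.28 and 11.25, 11.25 and 11.30, and 11.22 and 11.29. All 6 P8 arrays were below all 6 P0 arrays, a pattern that 7.41% of all genes had. The difference of -0.30 ± 0.07 (SE) on the log2 scale had an adjusted p of 0.0152, but its size of 1.23-fold did not pass the test. With 1 array left out at a time the adjusted p was 0.0238 to 0.0501. The SD within groups was 0.0494 on the log2 scale, and 0.435% of genes had as small a value. The regions of an age differed by at most 0.04 in their means.

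Pou3f4, a POU domain factor of the otic mesenchyme whose loss causes X-linked deafness, was at 11.13 and 12.11 in the P0 base, 11.24 and 12.11 in the P0 middle and 11.11 and 12.02 in the P0 apex. At P8 the sets gave 11.23 and 12.19 in the base, 10.15 and 12.16 in the middle and 10.36 and 12.06 in the apex. The arrays thus separated by dissection set rather than by age or region, and every value of the second set was above every value of the first. The SD within groups was 0.931, against a median of 0.209 over all genes, and 0.993% of genes had as large a value. Between P8 and P0 the log2 difference was -0.58 for the first and 0.06 for the second set, with a mean of -0.26 ± 0.45 (SE, adjusted p = 0.738). No neighbours in the order of its group means differed beyond their spread.

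**Figure D3:**
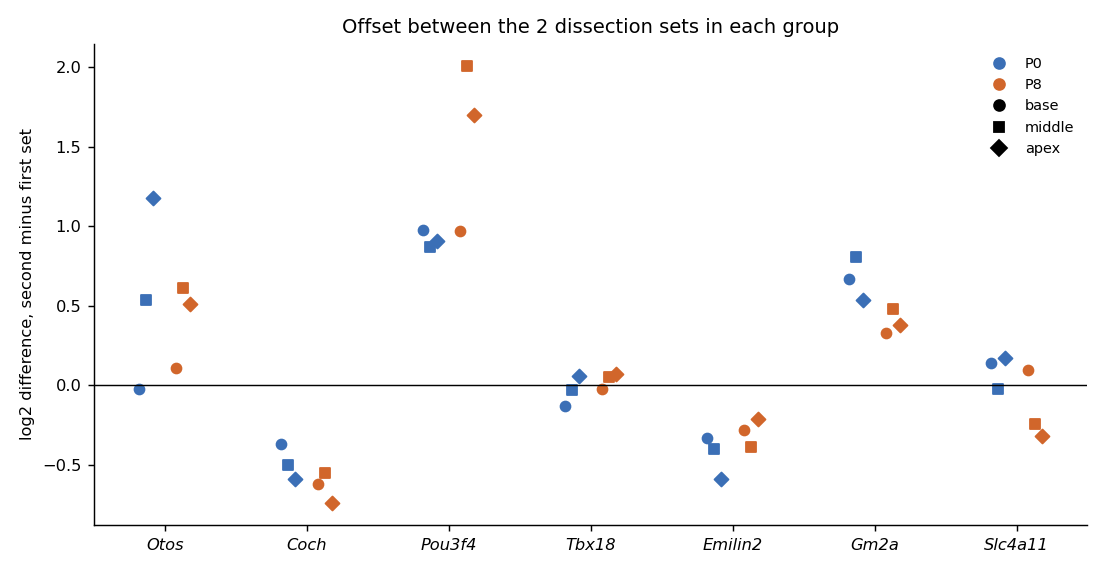
Log2 difference between the second and the first dissection set for each gene, in each of the 6 groups (colour for age, shape for region). Coch and Emilin2 lie below 0 and Pou3f4 and Gm2a above 0 in all 6 groups, and the points of Tbx18 lie close to 0.

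The offset between the sets had a fixed direction for 4 of the 7 genes. How many of all genes had a fixed direction was not counted. Over all genes, deviations from the group means correlated between the arrays of a set in all 15 pairs of groups, with r from 0.544 to 0.916. Pou3f4 was higher in the second set in 6 of 6 groups, by 0.87 to 2.01 and by 1.24 on average, and 1.0% of genes had as large a mean offset in either direction. Gm2a was also higher there in 6 of 6 groups, by 0.54 on average. Coch and Emilin2 were lower in 6 of 6 groups, by means of -0.56 and -0.37. Means as far from 0 occurred in 14.7% of genes for Gm2a, 13.4% for Coch and 27.2% for Emilin2. Otos was higher in 5 of 6 groups, with its widest offset, 1.18, in the P0 apex. The sets were separate dissections with different years in their titles. Whether the offsets came from the tissue taken, the animals or the array work was not tested.

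Gm2a encodes the ganglioside activator protein, which presents gangliosides to the lysosomal enzyme hexosaminidase. Its P0 signal was 10.31 and 10.98 in the base, 10.20 and 11.02 in the middle and 10.04 and 10.58 in the apex. The P8 signal was 11.23 and 11.57, 11.15 and 11.64, and 11.13 and 11.51. All P8 arrays were above all P0 arrays, the closest values being 11.13 at P8 and 11.02 at P0. The difference of 0.85 ± 0.20 (SE) on the log2 scale had an adjusted p of 0.0184, at 1.80-fold, and so did not reach the required 2-fold. Leaving out 1 array at a time gave adjusted p values of 0.0120 to 0.0559. The 3 regions of an age did not differ beyond their spread. In the apex the difference between the ages was 2.01-fold, where it did not pass without a block (adjusted p = 0.167) and passed with the dissection set as a block (adjusted p = 4.79e-04).

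Slc4a11 encodes a transporter of the SLC4 family, and its loss in people leads to corneal disease with hearing loss. It had P0 signals of 6.66 and 6.80 in the base, 6.50 and 6.48 in the middle and 6.56 and 6.73 in the apex. At P8 it had 6.93 and 7.03, 7.39 and 7.16, and 7.43 and 7.11. The ages did not overlap, with 6.80 as the highest P0 and 6.93 as the lowest P8 value. The log2 difference was 0.56 ± 0.09 (SE, adjusted p = 0.00304), and at 1.47-fold it did not pass. By region it was 0.25 ± 0.16 for the base, 0.79 ± 0.16 for the middle and 0.63 ± 0.16 for the apex. The base thus had the smallest of the regional differences, with SEs that leave their order uncertain. In the order of the means, the P8 middle at 7.28 and apex at 7.27 did not differ beyond their spread, and both were above the P8 base at 6.98 by more than it. In all, 4 of the 7 genes, Otos, Emilin2, Gm2a and Slc4a11, had every P8 array above every P0 array, as 8.08% of all genes did.

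Along the tonotopic axis none of the 7 genes passed the test between apex and base, which required 1.5-fold and an adjusted p under 0.05. At P0 0 of 7 passed, against 0.00613% of all genes, and at an unadjusted p under 0.05 limma gave 0 of 7 against 3.08%. At P8 0 of 7 passed, against 0.196% of all genes, and at an unadjusted p under 0.05 there was 1 of 7, Otos, against 4.28%. For the change of the difference from P0 to P8, 0 of 7 passed, against 0% of all genes, and 0 of 7 had an unadjusted p under 0.05, against 2.04%. With the dissection set as a block 0 of 7 passed in each of these comparisons, against 0.675% of all genes at P0, 1.58% at P8 and 0.178% for the change.

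**Figure D4:**
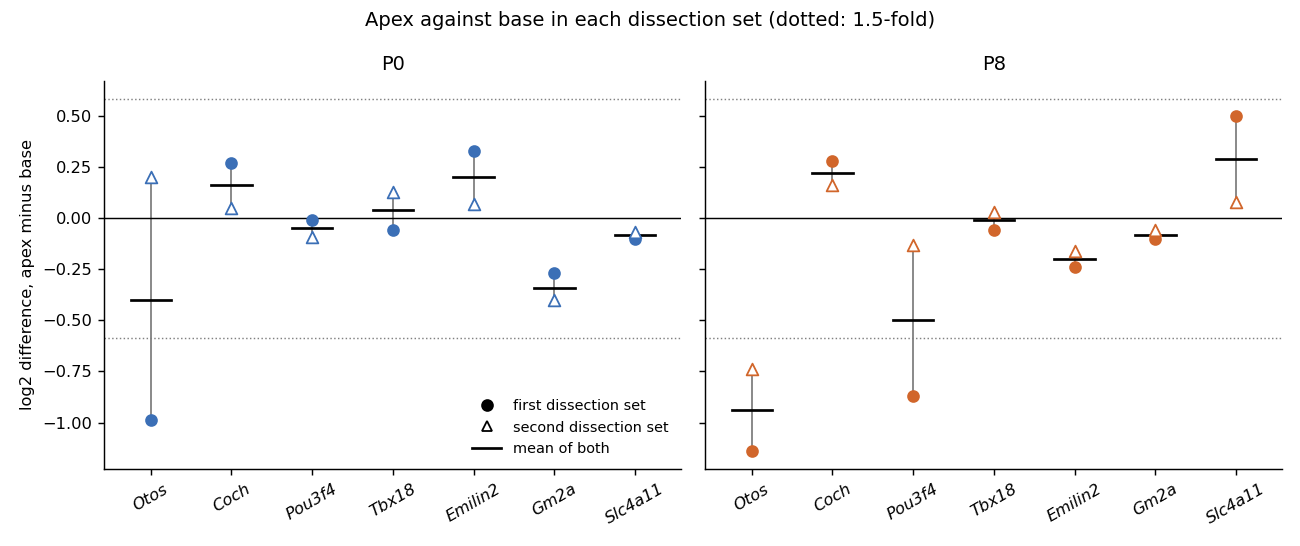
Log2 difference between apex and base in the first (circles) and second (triangles) dissection set, with the mean of both (bars), at P0 and P8. Dotted lines mark 1.5-fold. Otos at P8 lies below the lower dotted line in both sets, while at P0 its sets lie on either side of 0.

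Otos had the largest apex-base difference of the 7 genes at P8. Its apex-base difference was -1.14 and -0.74 on the log2 scale in the respective sets, a mean of -0.94 ± 0.38 (SE), or 1.91-fold, with rank 46 of 16306 from the lowest. The middle lay between base and apex in both sets. The step of the means from base to middle, 0.56, was beyond the spread of 0.31, and that from middle to apex, 0.38, was not beyond the spread of 0.40. None of the other 6 genes stepped down from base to middle to apex in both sets, an order that 9.55% of all genes had at P8. The difference did not pass without a block (adjusted p = 1.0) or with the dissection set as a block (adjusted p = 0.0795). With each pool of cochleae as its own block, a fit that compares regions only within a pool, it passed (adjusted p = 0.0199), and 2.81% of all genes then passed. At P0 the sets gave -0.99 and 0.20, so that no common direction was seen, and the change from P0 to P8 was -0.54 ± 0.54 (SE, adjusted p = 1.0).

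For the other genes the apex-base differences were small or uneven between sets. Pou3f4 had -0.50 ± 0.78 (SE) at P8, made up of -0.87 and -0.13 in the respective sets. Slc4a11 had 0.29 ± 0.16 at P8, with 0.50 and 0.08. Coch had 0.16 ± 0.35 at P0 and 0.22 ± 0.35 at P8, Emilin2 0.20 ± 0.25 and -0.20 ± 0.25, Gm2a -0.34 ± 0.35 and -0.08 ± 0.35, and Tbx18 0.04 ± 0.12 and -0.01 ± 0.12. With SEs of 0.12 to 0.78, a 1.5-fold gradient was within 2 SEs of the estimate for some of these genes and not for Tbx18. These SEs are of the fit without a block, where the offset between sets counts as spread. With the dissection set as a block the SEs were 0.11 to 0.26. For Coch the SE was then 0.12 in place of 0.35, and a 1.5-fold gradient was beyond 2 SEs at both ages.

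Markers of other cell types also differed between the ages and regions. From here on, a gene is said to rise or fall between the ages only where it passed the test of age. All 6 measured bone genes rose between P0 and P8, with a median log2 difference of 1.92, and the largest increase was that of Ibsp, bone sialoprotein, at 37.3-fold. Their mean signal was 6.58 to 7.06 on the P0 arrays and 8.43 to 9.79 on the P8 arrays. At P8 it stepped from 9.73 to 9.79 in the base through 9.18 to 9.35 in the middle to 8.43 to 9.16 in the apex, and all 6 genes had lower values in the apex than in the base, although 0 of 6 passed without a block and 1, Ifitm5, passed with the dissection set as a block (-1.51 on the log2 scale, adjusted p = 9.23e-04). Of the 10 bone genes listed, 1 was under the filter level and 3 had no entry of their own. Strial marginal cell genes rose for 3 of 6, with a median of 1.13, and strial intermediate cell genes for 3 of 7, with a median of 0.80. At P8 the apex-base median was -0.42 for the marginal and -0.43 for the intermediate cell genes, with all of them lower in the apex and 0 past the test, while the block called 2 marginal cell genes, Esrrb and Atp13a5, and 1 intermediate cell gene, Pmel. At P0 these medians were -0.41 and -0.32, with 6 of 6 marginal and 6 of 7 intermediate cell genes lower in the apex. Again 0 passed without the block. With it, the marginal cell genes Kcne1 and Atp6v0a4 were lower in the apex at P0, and the intermediate cell gene Tyrp1 was higher. Strial basal cell genes passed the test of age for 0 of 3, and leukocyte genes for 0 of 8. In the opposite direction, 3 of 7 genes of spiral ganglion neurons fell between the ages, with a median of -0.86, and all 7 were higher in the apex than in the base at both ages, with medians of 0.32 at P0 and 0.38 at P8. Hair cell genes had a median apex-base difference of 0.23 at P0, above 0 for 8 of 10, and of 0.38 at P8, above 0 for 10 of 10. Between apex and base at P8, 0 genes of these neuron and hair cell lists passed without a block, and 1 neuron gene, Gata3, and 2 hair cell genes, Otof and Slc26a5, passed with it. The part of these cell types in the values of Otos and Emilin2 was not tested.

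**Figure D5:**
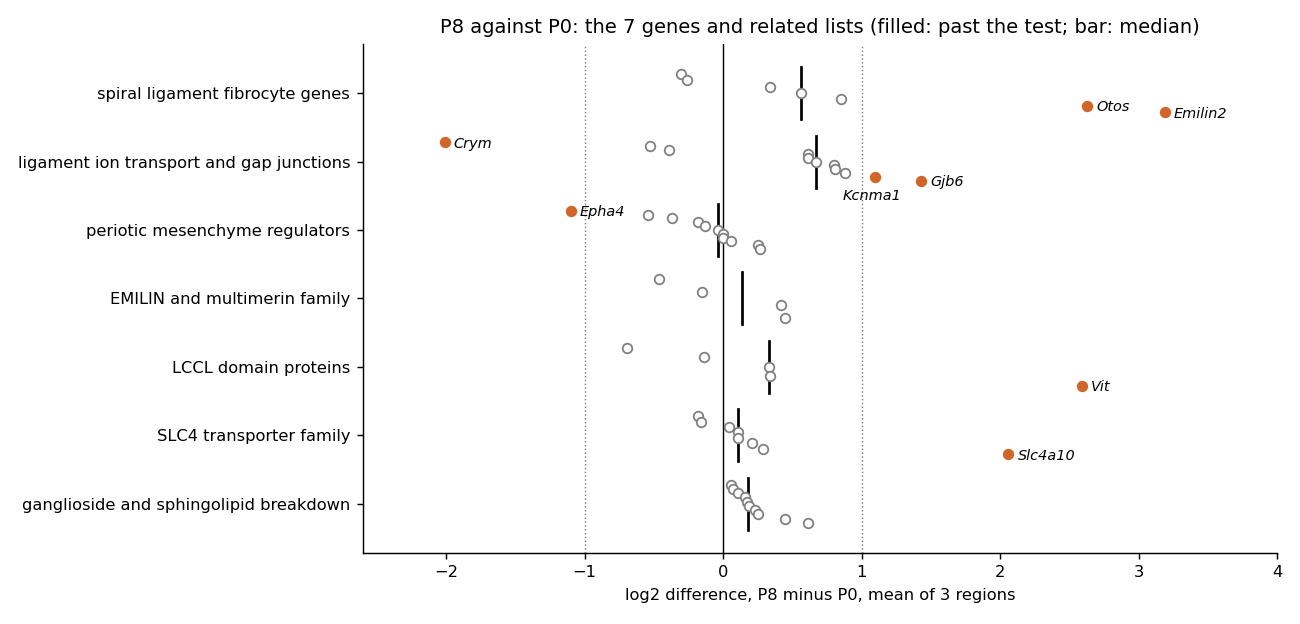
Log2 difference between P8 and P0, as the mean of 3 regions, for the 7 genes and for genes of 6 related lists, with 1 point per gene. Filled points passed the test, bars are medians and dotted lines mark 2-fold. Most points lie between the dotted lines, and Otos and Emilin2 lie to the right of all other genes drawn.

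Genes of the pathways in which these proteins act gave mixed results between the ages. Of 14 genes for ion transport and gap junctions of the ligament, 11 had an entry of their own, and of these 2 rose and 1 fell, and their median log2 difference was 0.67. Gjb6, a connexin gene, rose by 1.43 ± 0.12 (SE, adjusted p = 8.25e-05), and Kcnma1, a calcium-activated potassium channel, by 1.10 ± 0.12 (adjusted p = 4.54e-04). Crym, a thyroid hormone binding protein of fibrocytes, fell by 2.01 on the log2 scale with an SE of 0.15 (adjusted p = 5.39e-05). The partner connexin gene Gjb2 and the cotransporter gene Slc12a2 each stood at 0.61 and did not reach 2-fold.

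Of 11 regulators of the periotic mesenchyme, 0 rose and 1 fell, with a median of -0.04. The one was Epha4, an ephrin receptor, with -1.10 ± 0.08 (SE, adjusted p = 3.25e-05). Of the relatives of Emilin2, 0 of 4 EMILIN and multimerin genes passed, with log2 differences from -0.46 for Mmrn1 to 0.45 for Emilin3. Of 5 genes for other proteins with the LCCL domain found in cochlin, 1 rose, and this was Vit, which encodes vitrin, at 6.00-fold (adjusted p = 8.50e-05). Of 8 measured SLC4 transporters other than Slc4a11, 1 rose, Slc4a10, at 4.18-fold (adjusted p = 4.87e-05). Of 10 genes for ganglioside and sphingolipid breakdown, 0 passed, although all 10 differences were above 0, with a median of 0.18. Hexa, a subunit of the enzyme that Gm2a serves, stood at 0.61 ± 0.16 (adjusted p = 0.0300), short of 2-fold. Between apex and base, 0 genes of these 6 lists passed at either age without a block. With the dissection set as a block, 2 were lower in the apex, Gjb6 at P0, at -1.09 (adjusted p = 0.0295), and Crym at P8, at -1.11 (adjusted p = 0.0123).

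The genes whose log2 signal ran most like that of each of the 7 were found by Pearson's r over the 12 arrays, which share ages, pools and dissection sets. A difference between ages or sets that such genes share follows in part from this choice and is given as description only. For Emilin2 these were Scin, an actin-severing protein, at r = 0.993, Aldh1a1, a retinaldehyde dehydrogenase, at 0.991 and Tmem79 at 0.990. Scin and Aldh1a1 also rose between the ages, by 3.14 ± 0.16 and 2.47 ± 0.19 (SE). For Otos they were Adra1b, an adrenergic receptor, at 0.990, Tmem72 at 0.985 and Cd4 at 0.984. Gm2a ran most like Ehd3 at 0.989, Ceacam1 at 0.987 and Dipk1a at 0.986, and all 3 of these rose. Tbx18 ran most like the calcium channel gene Cacna1h at 0.973, Elavl3 at 0.972 and Slc1a4 at 0.971, of which Cacna1h and Elavl3 fell, by 1.17 and 1.06.

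For Pou3f4, Coch and Gm2a the most similar genes had offsets between the dissection sets in the same direction as the gene itself, in 6 of 6 groups. This follows in part from their choice by r over the same arrays. Pou3f4 was closest to Txn1 at 0.996, Echdc2 at 0.991 and Romo1 at 0.990, and Coch to Spint2 at 0.965, Pisd at 0.964 and Slc26a11 at 0.963, none of which passed the test of age. Txn1, Echdc2 and Romo1 were higher in the second set in 6 of 6 groups, by means of 1.03 to 1.79, and Spint2, Pisd and Slc26a11 were lower there in 6 of 6 groups, by means of -0.97 to -0.37. Ehd3, Ceacam1 and Dipk1a, the nearest to Gm2a, were higher there in 6 of 6 groups, by means of 0.72 to 1.18. The 3 genes nearest to Otos were higher there in 5 or 6 groups, by means of 0.14 to 0.37. Slc4a11 was closest to Mcc at 0.956, Stk39 at 0.952 and Sema4d at 0.947. Among the 7 genes themselves, r was 0.918 between Otos and Emilin2, 0.887 between Otos and Gm2a and 0.864 between Emilin2 and Slc4a11. The lowest values were those of Tbx18, at -0.955 with Emilin2, -0.903 with Slc4a11 and -0.902 with Otos. Next came -0.884 between Coch and Pou3f4, which had opposite offsets between the sets. Offsets were also opposite for Emilin2 and Pou3f4 (r = -0.288), Coch and Gm2a (r = -0.0189) and Emilin2 and Gm2a (r = 0.742).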

How the data were processed

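RNA from pooled cochlear tissue was measured on 12 Affymetrix Mouse Gene 1.0 ST arrays, 2 for each of 6 groups of age and region. Per the labels and methods, the authors took probe signals from the scans with Affymetrix Command Console Software and summarized them by robust multiarray averaging (RMA). The deposited values are log2 RMA signals, and whether both dissection sets went through 1 RMA run is not given in the sources used here. The number of arrays, 2 in each group, limits the precision.

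Of 35556 array entries, 21789 had 1 gene symbol and were used, and those with several (1621) or none (12146) were left out. The entry with the highest mean stood for a gene, which left 19938 genes, of which 16306 had a group mean above 6. These were fitted in limma 3.58.1 (R 4.3.3) with 6 group means, lmFit and eBayes, which left 6 residual degrees of freedom, and p-values were adjusted over all 16306 genes by Benjamini-Hochberg. A gene passed at an adjusted p under 0.05 and at least 2-fold between ages, 1.5-fold between apex and base, or with no fold for the change of that difference. The scripts were tested on simulated data.

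The set numbers follow the year in the sample titles, earlier for the first set and later for the second. Equal set numbers were taken to mark the same pool within an age, which the titles do not state. Deviations from the group means correlated between arrays of a set in all 15 pairs of groups, with r from 0.544 to 0.916. Fits with the dissection set or the pool as a block were therefore alternatives, beside no filter, quantile normalization, an intensity trend, the methods' t-test, the mean of all entries of a gene and leaving out each array. Per gene, all 12 values, the 3 most correlated genes and lists of related genes and cell type markers are given, with up to 4 genes past the test from each related list. The 7 genes and the lists were chosen with earlier results of these data known. Promoter sequences came from RefSeq (GRCm38.p6).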

Additional observations from a re-analysis of the deposited data

How the results depend on the processing

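The 7 genes had 308 results under alternatives other than leaving out an array, and 297 of them kept their direction and their side of the threshold. The count of 2 genes past the test of age over all regions was the same under every alternative run. With the replicate block (dissection set) Gm2a passed in the apex between P8 and P0, at 1.01 on the log2 scale (adjusted p = 4.79e-04), and the block by pool gave 1 gene, Otos, between apex and base at P8. Neither block changed another call. The methods' t-test sets an unadjusted threshold. At an unadjusted p under 0.05 and 2-fold it called 2 of the 7 genes between P8 and P0 in the base (320 of all genes), 2 in the middle (345) and 1, Emilin2, in the apex (387). After Benjamini-Hochberg adjustment, with 2 arrays against 2, it called 0 of the 7 and 0 of all genes in each region. Under quantile normalization 3 differences without a call changed sign, to -0.08 for Pou3f4 between P8 and P0 in the base, and to 0.06 and 0.03 for Tbx18 between apex and base at P8 and for its change. The cause of these differences was not tested.

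Over all genes, the replicate block called 554 in place of 357 between the ages in the base, 600 in place of 383 in the middle and 649 in place of 431 in the apex. Between apex and base it called 110 in place of 1 at P0 and 257 in place of 32 at P8, and 29 in place of 0 for the change, and the block by pool called 231, 458 and 151. With 1 array left out, all genes past the test numbered 143 to 356 in the base, 174 to 357 in the middle, 233 to 425 in the apex, 0 at P0 and 1 to 17 at P8. For the 7 genes, 1 to 2 then passed in each region, Otos being the one lost.

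Of 588 results with 1 array left out, 35 changed sign, none of them with a call. Pou3f4 ranged from -0.60 to 0.07 between P8 and P0, from -0.40 to 0.58 in the base, -1.52 to 0.48 in the middle and -1.21 to 0.49 in the apex. Its apex-base difference ranged from -0.54 to 0.44 at P0 and -1.35 to 0.35 at P8, and the change from -1.30 to 0.40. Coch ranged from -0.004 to 0.62 between P8 and P0 in the base and from -3.5e-04 to 0.73 in the apex, and from -0.13 to 0.45 at P0, -0.15 to 0.59 at P8 and -0.31 to 0.43 for the change between apex and base. The apex-base difference at P0 ranged from -0.99 to 0.19 for Otos, -0.03 to 0.10 for Tbx18, -0.09 to 0.50 for Emilin2 and -0.17 to 0.002 for Slc4a11. At P8 it ranged from -0.27 to 0.11 for Gm2a and -0.04 to 0.02 for Tbx18. The change ranged from -1.13 to 0.05 for Otos, -0.08 to 0.59 for Gm2a and -0.11 to 0.02 for Tbx18.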
